A study of Mus musculus with 8 samples.

Results

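The genes described here encode proteins that choose which exons a messenger RNA keeps, together with 1 antisense RNA gene, Srrm4os, that lies across one of them. They were 53 genes given as a list of symbols, and each was found among the 49315 genes counted by matching its Ensembl identifier to GENCODE M21 on the mouse build GRCm38. All 53 passed the filter on low counts, which left 19571 genes in the tests. By role they were 14 SR and SR-like genes (Srrm4os included), 13 hnRNP genes, 11 muscle and tissue regulators, 5 core factors that recognise or act at the 3′ splice site, and 10 other RNA-binding regulators.

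The tissue was gastrocnemius, the large calf muscle, of C57BL/6 mice aged 3, 12, 24 or 30 months, with no treatment or genetic change named in the labels. Total RNA was sequenced in 2 libraries per age, and the values are read counts per gene. Whether both libraries of an age are from different mice is not stated in the labels, so each p-value sets a difference against the spread between libraries, which may be technical. Counts per gene cannot show which exons were used, and exon use was not analysed here.

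Splicing begins when core factors recognise the ends of an intron. SR proteins mostly bind exons and favour their inclusion, and hnRNP proteins often act against them. In skeletal muscle, MBNL, CELF, RBFOX and RBM proteins of the kind listed here set the muscle forms of sarcomere, channel and calcium-handling proteins, and loss of MBNL activity underlies myotonic dystrophy. SRRM4 is known from neurons, where it promotes the inclusion of very short exons.

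Library totals were between 42404254 and 59245029 counts, and 3 counts, the limit that a count of 0 allows, corresponded to 0.0556 to 0.0659 CPM (counts scaled to 1000000 per library with TMM factors). This limit covers counting error only. Fast muscle fibre genes were high in every library, with 7 of them summing to between 86889 and 179202 CPM. The libraries labelled 3 months (both), 12 months replicate 1, 24 months replicate 1 and 30 months replicate 2 also held transcripts of 9 kidney genes at a summed level above 1 CPM (51.0, 16.6, 5.53, 4.20 and 3.70 CPM in that order), and the other 3 libraries held 0.662 to 0.722 CPM. The same 5 libraries had lower scores of 8 circadian clock genes (0.443 to 1.80 on a log2 scale, with both 3 month libraries lowest) than the other 3 (3.34 to 3.54). These 5 libraries are called the kidney set below. Of the 5 clock genes on the upper side of the score, 4 were lower in the kidney set at each later age. The other, Nr1d1, was higher there at 12 months (41.3 against 24.0 CPM) and 24 months (61.4 against 32.5 CPM), and lower at 30 months. Both 3 month libraries are in the kidney set, so a comparison with 3 months inside a single set is possible only there. Kidney level and clock score are not held equal inside it. Both 3 month libraries had more kidney transcript and lower clock scores than the later libraries of the set. In whole muscle, more cells of a type and more RNA per cell cannot be told apart.

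Srrm4os (ENSMUSG00000086219) is annotated as an antisense gene on the plus strand of chromosome 5, from 116438720 to 116465487 on GRCm38. Srrm4 (ENSMUSG00000063919) is on the minus strand, from 116439275 to 116591817. Of the 26768 bases of Srrm4os, 97.9% lie inside Srrm4, which covers 152543 bases. Its 3655 exon bases hardly meet those of Srrm4. Of these, 3468 bases (94.9%) lie in the intron between exons 8 and 9 of Srrm4, counted over its merged exons, 68 bases lie opposite the last exon of Srrm4, and 119 bases lie beyond the 3′ end of Srrm4. The 119 bases are exon 1 of Srrm4os, the stretch of its exons that no part of Srrm4 covers. They are shown because reads there cannot come from the annotated span of Srrm4. The sequence is that of transcript Srrm4os-201 in GENCODE M21, chr5:116438720-116438838, plus strand, 5′ to 3′.
Srrm4os exon 1: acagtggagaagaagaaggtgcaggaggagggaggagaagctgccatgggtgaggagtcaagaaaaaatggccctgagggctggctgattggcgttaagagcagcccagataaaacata

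**Figure D1:**
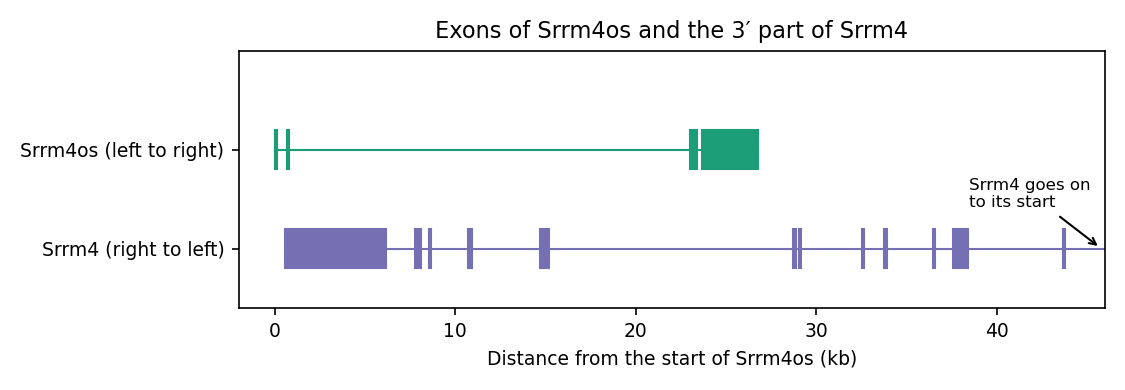
Exons (blocks) and introns (lines) of Srrm4os and of the 3′ part of Srrm4, by distance in kilobases from the start of Srrm4os, drawn to scale except that the narrowest exons are widened to be visible. The largest Srrm4os exon, of 3093 bases, sits within an intron of Srrm4, and only 68 exon bases face an exon of Srrm4.

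Srrm4os, the antisense RNA gene of the list, was the only 1 of the 53 genes that passed any of the 6 tests. Its level was higher at each later age. The tests were 4 pairs of ages, any difference among the ages, and a slope on age. None of the listed genes that encode proteins passed. Counted over the list, 1 of 53 genes passed at 30 against 3 months, where 0.148% of all genes tested did. At 24 against 3 months 1 passed (0.102%), at 12 against 3 months none (0.0409%) and at 30 against 12 months none (0.00511%). Across the ages 1 passed (0.0613%), and for the slope 1 (0.133%). A single gene is 1.89% of the list. DESeq2 likewise called none at 12 against 3 months (0.353% of all genes tested) but 1, Srrm4os, at 30 against 12 months (0.317%). Srrm4os had 1.56 and 1.65 CPM in 3-month muscle, 2.82 and 3.08 in 12-month muscle, 5.86 and 6.12 in 24-month muscle and 7.56 and 6.48 in 30-month muscle. No library of one age overlapped with those of another age. These levels rest on 344 and 345 counts at 30 months and on 72 and 89 counts at 3 months. The means were 1.60 ± 0.067, 2.95 ± 0.18, 5.99 ± 0.18 and 7.02 ± 0.76 CPM from the youngest to the oldest age (SD, n = 2 each).

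At 30 against 3 months, the log2 fold change of Srrm4os was 2.13 (SE 0.19, 95% interval 1.70 to 2.56, adjusted p = 0.00293 in edgeR's quasi-likelihood test with Benjamini-Hochberg adjustment over all genes tested). The value at 24 against 3 months was 1.90 (SE 0.19, adjusted p = 0.00862). Srrm4os rose in both comparisons, and it had the eighth-lowest and the seventh-lowest p of all genes tested in them. At 12 against 3 months the log2 fold change was 0.88 (SE 0.19, adjusted p = 0.436), and at 30 against 12 months it was 1.25 (SE 0.18, adjusted p = 0.201), and neither passed. Across the 4 ages Srrm4os passed (adjusted p = 0.00948), and its slope on age, in log2 units for each month, was 0.080 (SE 0.0067, adjusted p = 0.000595).

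The call at 30 months needed both young libraries. Without replicate 1 of 3 months the log2 fold change was 2.09 (adjusted p = 0.0866), and without replicate 2 it was 2.18 (adjusted p = 0.0708). The call at 24 months was lost without either of them (adjusted p = 0.185 without replicate 1 and 0.166 without replicate 2) and without replicate 2 of 24 months (adjusted p = 0.0722). The call across the ages was likewise lost when either 3 month library was left out (adjusted p = 0.189 for the first and 0.165 for the second), without the second 24 month library (0.0528), with both 3 month libraries left out (0.999) and with a replicate block (0.0563). The slope kept its call with any 1 library left out but lost it without both 3 month libraries (adjusted p = 0.313). The size of the difference hardly moved: over 17 other settings the log2 fold change at 30 months was between 2.01 and 2.24, and 15 of them called it. Within the kidney set, the difference between 30 and 3 months in log2(CPM + 0.5) was 1.73, against 1.84 over all libraries on that scale. That set holds a single library of 30 months, with 3.70 CPM of kidney transcripts against 51.0 and 16.6 CPM in the 3 month libraries. Between 30 and 12 months the difference was 1.07 in the kidney set and 1.17 in the other set, with a single library of each age in each.

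Srrm4 itself was detected at a low level in every library. It had 0.519 and 0.686 CPM in 3-month muscle, 0.993 and 0.819 in 12-month muscle, 2.09 and 0.799 in 24-month muscle and 1.12 and 1.69 in 30-month muscle. All 6 later libraries lay above both at 3 months, but the 2 libraries of 24 months were the highest and the lowest of these 6. The log2 fold change at 30 against 3 months was 1.22 (SE 0.46, 95% interval 0.18 to 2.25, adjusted p = 0.499), and at 24 against 3 months it was 1.25 (SE 0.46, adjusted p = 0.587). Neither passed, on 24 to 109 counts per library. With the library set as a term, Srrm4 passed at 30 months (log2 fold change 1.56, adjusted p = 0.0433). At 12, 24 and 30 months the library of the kidney set had more Srrm4 than the other library, while Srrm4os was slightly lower there.

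**Figure D2:**
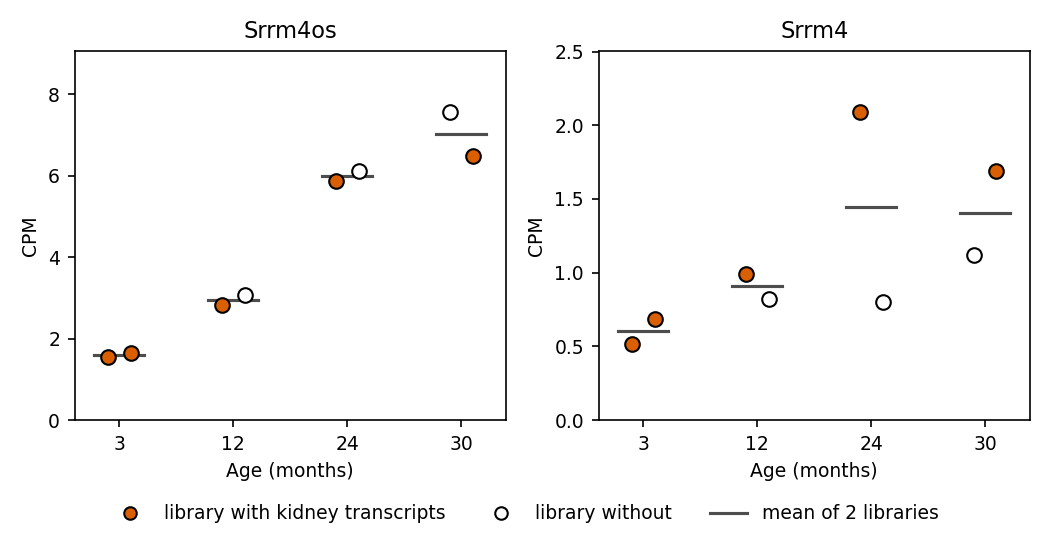
CPM of Srrm4os and Srrm4 in each of the 8 libraries by age in months, with the mean of the 2 libraries as a line. Filled points are libraries with summed kidney transcripts above 1 CPM. Srrm4os lies at 6.48 to 7.56 CPM at 30 months and 1.56 to 1.65 CPM at 3 months, and Srrm4 stays between 0.519 and 2.09 CPM.

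Per kilobase of exon, Srrm4os was more abundant than Srrm4 in every library. The ratio of their RPKM (CPM divided by the kilobases of merged exons) was 7.11 and 5.70 in 3-month muscle, 6.74 and 8.92 in 12-month muscle, 6.65 and 18.1 in 24-month muscle and 16.0 and 9.08 in 30-month muscle. Whether the counting used strand is not given in the sources read here. Reads of Srrm4 that keep the intron between exons 8 and 9 would fall on exons of Srrm4os if strand was ignored, and this was not tested. Among cell types, 7 neuronal genes summed to 1.41 and 2.89 CPM at 30 months and to 2.25 and 2.10 CPM at 3 months, with none of the 7 higher in both old than in both young libraries. Of the slow fibre genes, 7 of 7 were higher in both libraries of 30 months, summing to 1529 and 2676 CPM there and to 766 and 499 CPM at 3 months. Of the fibroblast genes, 5 of 5 were lower, summing to 554 and 596 CPM at 30 months and to 985 and 1059 CPM at 3 months. Over all genes tested, 21.1% were higher and 20.2% lower in this way. Of the other lists, 8 of 9 kidney genes were lower, and 3 of 6 heart and 3 of 6 macrophage genes higher. The fast fibre, Schwann cell, endothelium, adipocyte and satellite cell lists had at most 1 gene in each direction. The part of these cell types in the level of Srrm4os was not tested.

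None of the 12 other SR and SR-like genes passed any of the 6 tests. Their median log2 fold change at 30 against 3 months was 0.02, against 0.0093 over all genes tested. Srsf1, which favours exon inclusion and is among the best-studied SR proteins, was between 65.1 and 84.2 CPM over the 8 libraries. Srsf6 was between 50.6 and 60.9 CPM, and Tra2b, which binds purine-rich exon sequences, between 27.4 and 33.0 CPM, the narrowest range of the group as a ratio. Srsf2, an SR protein found in nuclear speckles, had the lowest p of the group after Srrm4os at 24 against 3 months. The difference there was 0.42 in log2 (SE 0.14, adjusted p = 0.534), and all 6 later libraries were above both at 3 months. Of its exon bases, 25.3% are shared with Mettl23 and Mfsd11 on the other strand, so its counts may have gained or lost reads there. Per kilobase, Srsf5 was the most abundant SR gene, with a mean of 25.9 RPKM over all libraries.

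None of the 13 hnRNP genes passed any of the 6 tests, and their median log2 fold change at 30 against 3 months was 0.06. Hnrnph1, which binds G-rich sequences near splice sites, had the lowest p of the group at 30 against 3 months. Its level was 87.5 and 86.1 CPM in 3-month muscle, 81.3 and 80.5 in 12-month muscle, 82.2 and 87.4 in 24-month muscle and 68.5 and 74.9 in 30-month muscle. The 2 oldest libraries were the lowest of the 8, and the log2 fold change at 30 against 3 months was -0.27 (SE 0.14, adjusted p = 0.653). Ptbp1, a repressor of neuronal and muscle exons, had 12.9 and 16.5 CPM in 3-month muscle, 16.2 and 15.3 in 12-month muscle, 16.0 and 13.7 in 24-month muscle and 16.2 and 16.9 in 30-month muscle. The oldest and youngest groups overlapped (log2 fold change 0.17, SE 0.16, adjusted p = 0.851). Its paralog Ptbp2, known for its role in developing neurons, was expressed at a similar level per kilobase, 3.19 RPKM against 3.26 RPKM for Ptbp1. Hnrnpa1 had the widest range of the group as a ratio of highest to lowest, from 27.5 to 61.2 CPM, with the highest value in replicate 2 of 24 months. Its difference between 24 and 3 months was 0.53 in log2 (SE 0.20, adjusted p = 0.593), and it was named after its values were seen. Without the filter on low counts Hnrnpa1 passed across the ages, where 1.4% of all genes did. The most abundant per kilobase was Hnrnpa2b1 at 24.6 RPKM.

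Several of the muscle and tissue regulators were the most abundant splicing factor genes per kilobase. Mbnl2 was at 53.6 RPKM, Rbm24 at 51.0, Rbfox1 at 50.7, Qk at 29.5 and Mbnl1 at 29.4 RPKM, all above every gene of the other roles. Mbnl1 and Mbnl2 favour adult isoforms in muscle, Rbm24 is enriched in heart and skeletal muscle, Rbfox1 is the muscle and brain relative of Rbfox2, and Qk encodes quaking, which acts in muscle and myelinating cells. Mbnl3, the third muscleblind gene, was near the floor at 0.0276 RPKM, on 4 to 18 counts per library. None of the 11 passed any of the 6 tests, and their median log2 fold change at 30 against 3 months was 0.01. Rbfox2, which binds GCAUG beside regulated exons, had the lowest p of the group at 30 against 3 months. It was at 68.1 and 75.3 CPM in 3-month muscle, 71.2 and 79.8 in 12-month muscle, 87.0 and 81.7 in 24-month muscle and 85.3 and 91.7 in 30-month muscle. The 4 libraries of the older ages were all above the 4 of the younger ages. The log2 fold change at 30 against 3 months was 0.30 (SE 0.15, 95% interval -0.03 to 0.64, adjusted p = 0.626), and the slope on age had an adjusted p of 0.397. Rbm20, which represses exons of titin, had 64.8 and 61.1 CPM in 3-month muscle, 65.7 and 86.5 in 12-month muscle, 69.2 and 99.9 in 24-month muscle and 92.8 and 68.8 in 30-month muscle. All 6 later libraries were above both at 3 months, with a wide gap between the 2 libraries of each later age (log2 fold change at 30 months 0.36, SE 0.23, adjusted p = 0.738).

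That gap followed the library sets. At each of the 3 later ages the library of the kidney set had less Rbm20, and the same held for Rbfox1, Rbm24 and Mbnl1, named here after their values were seen. For Rbfox1 the library of the kidney set minus the other library was -0.73, -0.55 and -0.77 in log2(CPM + 0.5) at 12, 24 and 30 months. Within the kidney set, the 30 month library minus the mean of the 3 month libraries was 0.13 for Rbm20, -0.38 for Rbfox1, -0.17 for Rbm24 and -0.49 for Mbnl1. Over all libraries on that scale the same differences were 0.34, 0.006, 0.088 and -0.26. The summed level of 7 fast fibre genes was also lower in the kidney set at each later age, at 122667 against 150998 CPM at 12 months, 120740 against 179202 CPM at 24 months and 86889 against 155887 CPM at 30 months, with 5 of the 7 lower at all 3 ages. Whether fibre content, kidney RNA or clock time had a part in these gaps was not tested. Of all 53 genes, 20 were lower in the kidney set at all 3 later ages (37.7%, against 21.2% of all genes tested) and 8 were higher (15.1%, against 22.2%).

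**Figure D3:**
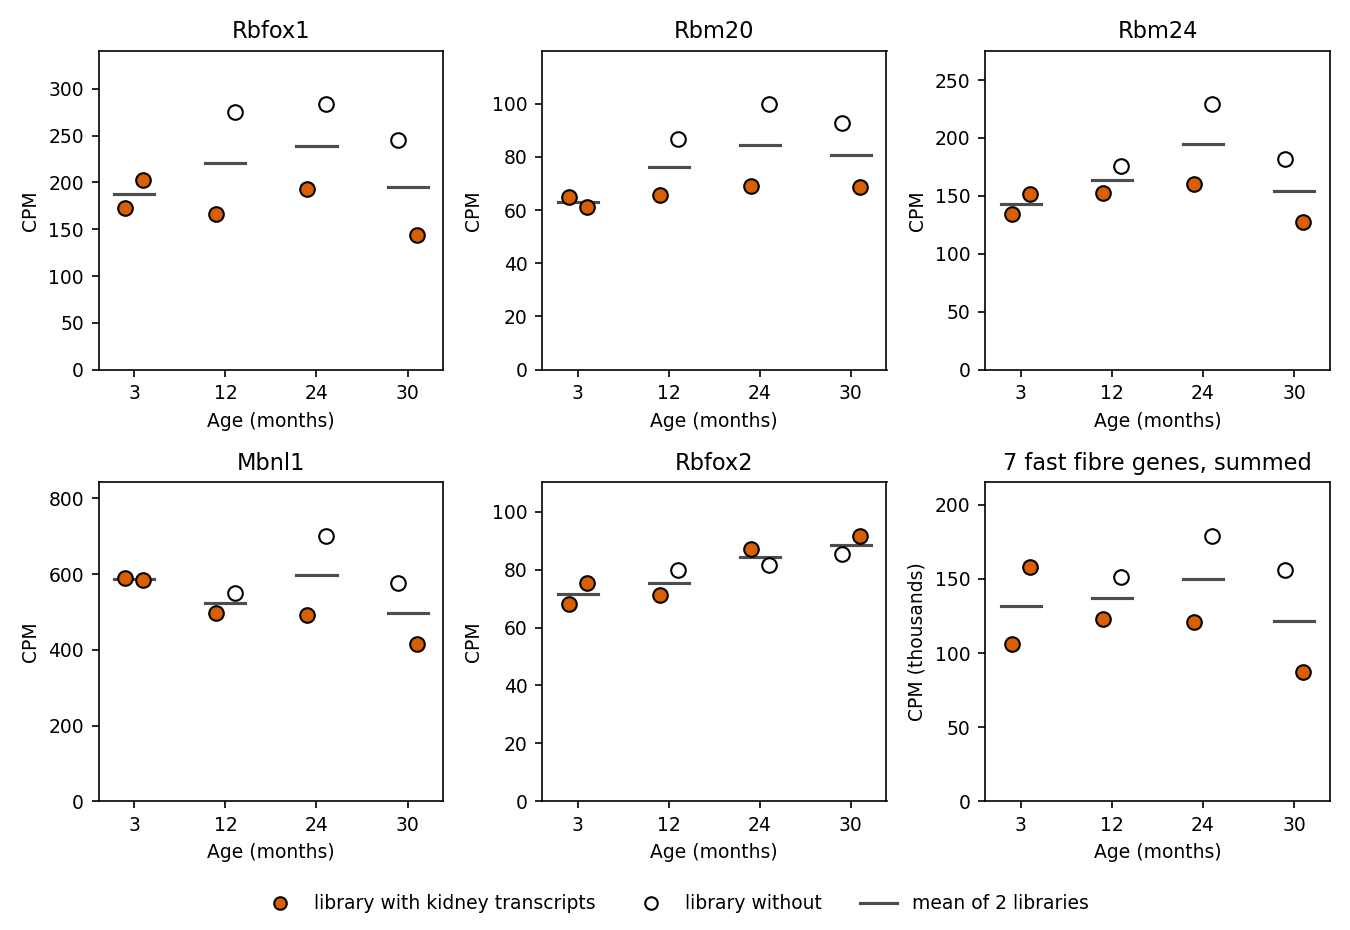
CPM of 5 muscle regulators, and the summed CPM (in units of 1000) of 7 fast fibre genes, in each library by age in months, with the mean of the 2 libraries as a line. At 12, 24 and 30 months the library with kidney transcripts (filled) lies below the other in every panel except Rbfox2, where it is lower at 12 months and higher at 24 and 30 months.

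The 5 core factors of the 3′ splice site had the lowest median coefficient of variation of the 5 roles, 8.68% over the 8 libraries. None passed any of the 6 tests. At 30 against 3 months all 5 fold changes were positive and small, with log2 values between 0.09 and 0.15. U2af2, the subunit that binds the pyrimidine tract before the splice site, had 29.0 and 34.0 CPM in 3-month muscle, 36.5 and 36.8 in 12-month muscle, 34.8 and 38.8 in 24-month muscle and 32.4 and 36.0 in 30-month muscle. Sf3b1, the subunit of the U2 particle that holds the branch point, had 117 and 106 CPM in 3-month muscle, 118 and 132 in 12-month muscle, 118 and 178 in 24-month muscle and 130 and 118 in 30-month muscle. The oldest and youngest groups overlapped for U2af2 (log2 fold change 0.12, SE 0.14, adjusted p = 0.892), and for Sf3b1 they did not overlap (log2 fold change 0.15, SE 0.21, adjusted p = 0.905). Prpf8, the large protein at the centre of the spliceosome, was the most abundant per kilobase, at 27.5 RPKM.

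Among the 10 other RNA-binding regulators, Rbm3 and Cirbp stood at higher values in all 6 later libraries than in both at 3 months, without passing the test. Both encode small RNA-binding proteins that are known to be induced by mild cold, and Cirbp is also known to follow the circadian clock through body temperature. Rbm3 (ENSMUSG00000031167, chromosome X, 8138975 to 8145880, minus strand) had 31.5 and 35.6 CPM in 3-month muscle, 48.4 and 57.3 in 12-month muscle, 54.8 and 79.6 in 24-month muscle and 66.8 and 51.2 in 30-month muscle. Cirbp (ENSMUSG00000045193, chromosome 10, 80165985 to 80172786, plus strand) had 13.5 and 18.5 CPM in 3-month muscle, 19.9 and 31.8 in 12-month muscle, 32.3 and 29.6 in 24-month muscle and 32.8 and 25.9 in 30-month muscle. For both genes the later ages overlapped with each other. Inside the kidney set, values at 12 and 24 months were compared in log2(CPM + 0.5) with the mean of the 3 month libraries. The differences were 0.52 and 0.70 for Rbm3 and 0.32 and 1.01 for Cirbp, from a single library at each of these ages.

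At 30 against 3 months the log2 fold change was 0.81 for Rbm3 (SE 0.21, 95% interval 0.33 to 1.30, adjusted p = 0.269). For Cirbp it was 0.87 (SE 0.24, 95% interval 0.32 to 1.42, adjusted p = 0.309). At 24 against 3 months the values were 1.00 for Rbm3 (SE 0.21, adjusted p = 0.249) and 0.95 for Cirbp (SE 0.24, adjusted p = 0.367), and at 12 against 3 months 0.66 (SE 0.21, adjusted p = 0.796) and 0.69 (SE 0.24, adjusted p = 0.870). DESeq2 called both at 24 months (adjusted p = 0.00827 for Rbm3 and 0.0492 for Cirbp) and neither at 30 months (0.0633 and 0.0781). Without the filter on low counts both passed at 30 months (0.00425 and 0.00271). Within the kidney set, the difference between 30 and 3 months in log2(CPM + 0.5) was 0.60 for Rbm3 and 0.69 for Cirbp, against 0.79 and 0.86 over all libraries. The 30 month value in that set is from a single library, with less kidney transcript than both 3 month libraries. The clock score sets Dbp, Tef, Per3, Nr1d1 and Nr1d2 against Arntl and 2 others. It was lowest in the 3 month libraries (0.443 and 0.632), between 1.10 and 1.80 in the later libraries of the kidney set and between 3.34 and 3.54 in the rest. Its part in the levels of Rbm3 and Cirbp was not tested.

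**Figure D4:**
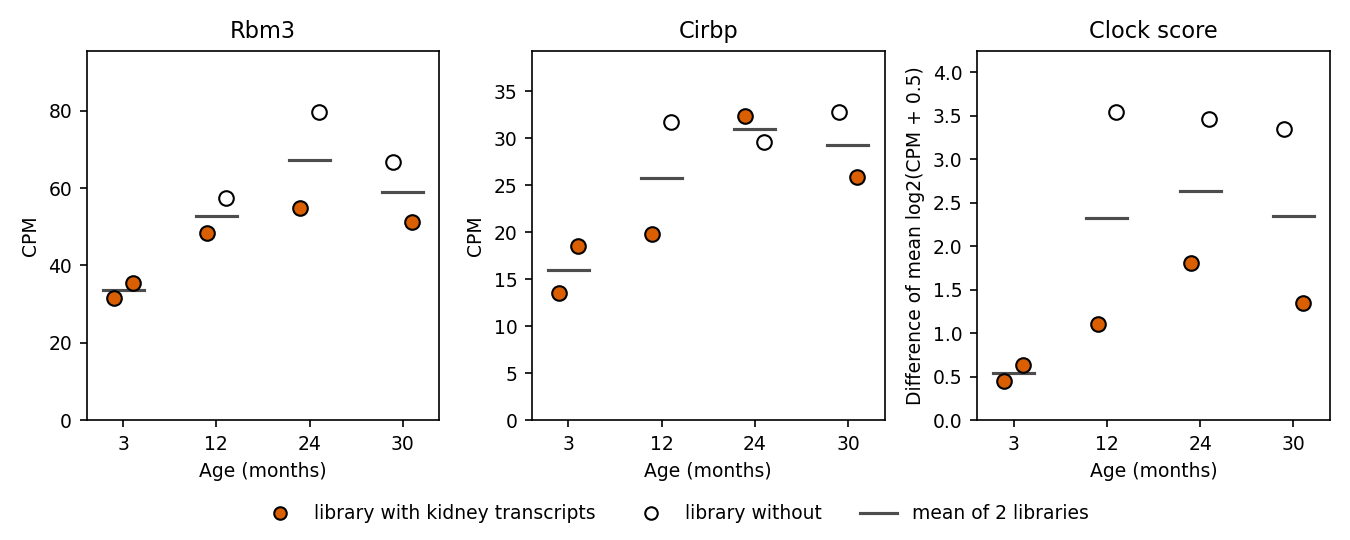
CPM of Rbm3 and Cirbp, and the clock score (difference of mean log2(CPM + 0.5) between 5 genes and 3 genes of opposite phase), in each library by age in months, with the mean of the 2 libraries as a line. In all 3 panels both 3 month libraries lie lowest, and libraries with kidney transcripts (filled) score below 2 on the clock while the others score above 3.

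The promoter of Cirbp is shown because a short sequence, TCCCCGCC, has been described as a response element for mild cold. It is the stretch of 250 bases before the first of the annotated starts of Cirbp in RefSeq (GRCm38.p6, chr10:80167589-80167838, plus strand, 5′ to 3′), with that motif in capitals, beginning at position -247 from the start site.
Cirbp promoter: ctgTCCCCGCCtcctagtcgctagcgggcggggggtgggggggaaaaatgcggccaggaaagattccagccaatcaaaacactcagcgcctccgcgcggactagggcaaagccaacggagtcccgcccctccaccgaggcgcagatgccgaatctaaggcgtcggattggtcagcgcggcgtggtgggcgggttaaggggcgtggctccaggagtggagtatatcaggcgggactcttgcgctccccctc
The window before the second start held no match. Both windows lie inside the span of Cirbp as counted, which begins upstream of them at 80165985. The promoter of Rbm3 was not analysed here. On either strand, TCCCCGCC was in the windows of 5 of the 47 listed genes with an entry (Cirbp, Hnrnpf, Qk, Sf1 and Srsf7, 10.6%) and of 5.37% of 27025 genes. CACGTG, the E-box bound by clock factors, was in 5 of the 47 (Hnrnpa3, Hnrnpd, Hnrnpf, Mbnl1 and Ptbp1, 10.6%) and in 6.86% of all. These matches describe letters in the windows and are not shown to be binding sites.

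The other 8 RNA-binding regulators did not pass. Nono, a paraspeckle protein that pairs with Sfpq, had its highest value in replicate 2 of 24 months (44.0 CPM, with the other libraries between 24.3 and 31.8 CPM). Between 24 and 3 months Nono differed by 0.56 in log2 (SE 0.18, adjusted p = 0.519). Sfpq was between 49.3 and 58.0 CPM, with all 6 later libraries above both at 3 months. Tardbp, which encodes the RNA-binding protein that aggregates in amyotrophic lateral sclerosis, was the 1 gene of the 53 with all 6 later libraries below both at 3 months. It was between 54.9 and 61.4 CPM at the later ages and at 62.2 and 66.0 CPM at 3 months. Of its exon bases, 23.3% are shared with Masp2 on the other strand. Rbm10 had the narrowest range of all 53 genes, its highest library being 1.15 times its lowest.

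At an unadjusted p under 0.05, 4 of 53 genes were counted at 30 against 3 months (7.55%, against 8.52% of all genes tested), 7 at 24 against 3 months (13.2%, against 7.56%), 4 at 12 against 3 months (7.55%, against 5.50%) and 1 at 30 against 12 months (1.89%, against 5.21%). For the test across the ages there were 5 (9.43%, against 5.66%) and for the slope 5 (9.43%, against 9.83%). All fold changes and slopes among these were positive. At 30 months the 4 were Srrm4os, Srrm4, Rbm3 and Cirbp, the same 4 whose 95% intervals exclude 0 in the plot of fold changes.

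**Figure D5:**
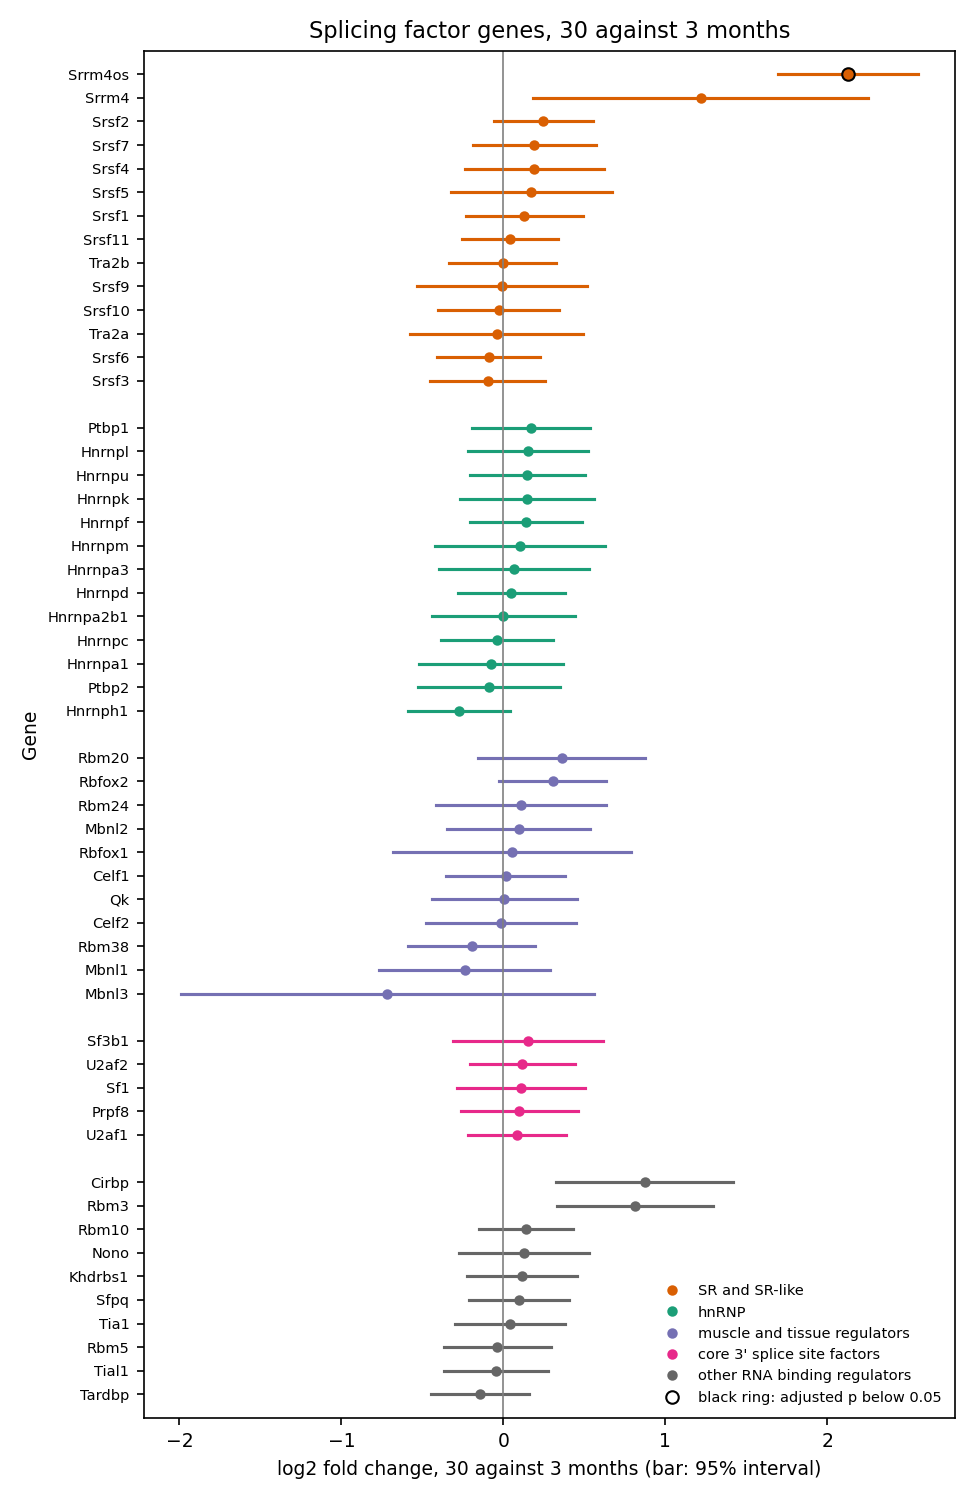
Log2 fold change of each of the 53 genes at 30 against 3 months with its 95% interval, by role, from edgeR's quasi-likelihood fit. Srrm4os at 2.13 is the gene that passed, and the intervals of Srrm4, Rbm3 and Cirbp also lie above 0 without passing the adjusted threshold.

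Both libraries of 30 months lay above both of 3 months for 16 of the 53 genes (30.2%, against 21.1% of all genes tested) and below them for 4 (7.55%, against 20.2%). At 24 against 3 months the counts were 16 above (30.2%, against 20.0%) and 1 below (1.89%, against 19.4%), and at 12 against 3 months 14 above (26.4%, against 19.3%) and 9 below (17.0%, against 19.2%). All 6 later libraries lay above both at 3 months for 8 genes (15.1%, against 6.86% of all genes tested), namely Srsf2, Srrm4, Srrm4os, Rbm20, Sf3b1, Rbm3, Cirbp and Sfpq, and below both for 1, Tardbp (1.89%, against 6.09%). These comparisons share the 3 month libraries. At 30 against 3 months 35 of 53 fold changes were positive (66.0%, against 51.4%), and the median log2 fold change was 0.09, against 0.0093 over all genes tested. At 24 against 3 months 40 were positive (75.5%, against 51.9%), at 12 against 3 months 30 (56.6%, against 50.5%), at 30 against 12 months 32 (60.4%, against 49.2%), and for the slope 42 (79.2%, against 51.7%). For 24 against 3 months, with libraries scaled by their totals alone only 23 of the 53 were positive, and the median log2 fold change was then -0.03 in place of 0.07. The median over all genes tested moved with it, to -0.08 in place of 0.01, so the list stayed above all genes by a like amount under both scalings.

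Of the 53 genes, 22 share exon bases with another annotated gene, most of all Srsf4 (43.0%), Hnrnpf (26.5%), Srsf2 (25.3%), Hnrnpm (24.9%) and Tardbp (23.3%). Counts of such genes may be raised or lowered by the overlap.

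Most splicing factor genes varied little between libraries of any age. The median coefficient of variation over the 8 libraries was 10.7% for the 53 genes and 14.4% for the 13474 tested genes that averaged at least 1 CPM. The highest library was 1.37 times the lowest at the median of the list and 1.53 times the lowest at the median of the 13474. The list and the 13474 genes were not matched for level, and low counts vary more by counting alone. The lower spread is thus not shown to be a trait of splicing factor genes. Beyond the list, 115 further genes of the splicing machinery were looked at, of which 106 were tested: kinases and phosphatases of SR proteins, proteins of the U1, U2 and U5 particles, late-step and exon junction factors, further hnRNP genes and further tissue regulators. None passed any of the 6 tests in edgeR, where 0.00511% to 0.148% of all genes tested passed. None was called by DESeq2 (0.317% to 1.52% of all genes) or limma-voom (0.00511% to 0.112%). At such shares the lack of calls does not set these genes apart from all genes. Without the filter on low counts, Nova1, a neuronal splicing regulator, passed at 12 against 3 months and across the ages. With the filter its log2 difference at 12 against 3 months was -0.94 ± 0.22 (SE), with edgeR's adjusted p = 0.471. At an unadjusted p under 0.05 there were 6 at 30 against 3 months (5.66%, against 8.52% of all genes tested), 3 of them higher and 3 lower. The count was 11 at 24 against 3 months (10.4%, against 7.56%), 9 higher and 2 lower, and 6 at 12 against 3 months (5.66%, against 5.50%), 2 higher and 4 lower.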

How the data were processed

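Total RNA of gastrocnemius was sequenced from 8 libraries, 2 at each of 4 ages. The authors deposited raw whole-number counts for each Ensembl gene. The submitters' processing notes name Trimmomatic 0.36, STAR 2.5.2b, featureCounts, Subread 1.5.2 and the builds GRCm38 and mm10. No source read here gives their annotation release, whether counting used strand, or how multiply mapped reads were handled. Symbols came from GENCODE M21, which matched 49056 of 49315 identifiers. Of the 53 genes, 44 had the same start and end in both annotations.

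Tests were run on the counts with edgeR 4.0.16 in R 4.3.3 (filterByExpr on age, TMM, robust quasi-likelihood F tests, 4 residual degrees of freedom) on all genes, with Benjamini-Hochberg adjustment over 19571 genes and calls at an adjusted p below 0.05. The fit held age only. DESeq2 1.42.0 and limma 3.58.1 were alternatives. CPM used TMM-scaled library sizes, and RPKM divided them by kilobases of merged exons. Libraries entered the kidney set by a summed level of 9 kidney genes above 1 CPM. The set enters 1 alternative as a term. The procedure was also run on simulated counts, with changes placed at 30 months only. These counts held no library sets, so that run cannot show how the sets affect the calls. Values per library were given for Srrm4os, Srrm4, Rbm3, Cirbp, every gene called and the 2 genes of lowest p per role at 30 against 3 months. The genes, the marker and pathway lists, the sets and the tests were chosen with earlier results of these data known. Deviations from the age means correlated above 0.1 in only 2 of 6 pairs of libraries with the same replicate number (range -0.475 to 0.330), so the numbers were not used as pairs.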

Additional observations from a re-analysis of the deposited data

How the results depend on the processing

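Only at 30 against 3 months were the 10 genes given in full all followed over the settings run. The settings included other scaling, filters, DESeq2, limma-voom, a replicate block, the library set as a term and each library left out. Under these settings the sign of the log2 fold change stayed the same for each of the 10 genes. The size moved by over 1.5 times for 4 of them, none of which passed: Ptbp1 was between 0.0033 and 0.36, U2af2 between 0.0059 and 0.24, Rbm20 between 0.12 and 0.56 and Sf3b1 between 0.0038 and 0.22. The lowest values came without replicate 1 of 3 months for Ptbp1 and U2af2 and with the set as a term for Rbm20 and Sf3b1, so no direction is read from these 4. The number of the 53 genes called moved as follows. Without the filter on low counts, 33615 genes were tested in place of 19571. That setting called 3 of the 53 at 24 against 3 months (0.693% of all genes) and 3 at 30 against 3 months (1.12%). It also called 1 at 30 against 12 months (0.414%) and 4 across the ages (1.4%). DESeq2 called 3 at 24 against 3 months (0.68% of all genes), 1 at 30 against 12 months (0.317%) and 2 across the ages (1.18%). The library set as a term gave 2 at 24 against 3 months (0.363% of all genes) and 2 at 30 against 3 months (2.13%). It also gave 1 at 30 against 12 months (0.281%) and 2 for the slope (1.51%). With the replicate block, 0 were called across the ages (adjusted p of Srrm4os 0.0563), and no other count of the list changed. Without the 3 month libraries, 0 were called across the ages and 0 for the slope. Leaving out 1 library at a time gave 0 to 1 at 24 against 3 months, 0 to 1 at 30 against 3 months and 0 to 1 across the ages, and a lone library was then assumed to vary like the other ages. The causes were not tested. Over all genes, 29 were called at 30 against 3 months, against 378 without the filter, 213 by DESeq2, 416 with the set as a term, 13 with the replicate block and 10 to 52 with 1 library left out. At 24 against 3 months the count was 20, against 233, 133, 71, 9 and 5 to 33 in the same order, and 46 with only the 4 libraries compared. At 12 against 3 months it was 8, against 134, 69, 29, 5 and 4 to 14. At 30 against 12 months it was 1, against 139, 62, 55, 0 and 0 to 10. Across the ages it was 12, against 469, 231, 203, 8 and 4 to 52, and for the slope 26, against 107, 298, 295, 26 and 5 to 74. Depth limits Srrm4 and Mbnl3, whose counts per library were 24 to 109 and 4 to 18.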
